A study of Arabidopsis thaliana with 24 samples.

Results

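Out of 22746 non-control probe sets on the Arabidopsis ATH1 array, 10 were raised by the elicitor INA and not by the elicitor DCA 48 h after spraying. They were chosen by measured values: a mean log2 signal of at least 6.2 over 24 arrays (a signal of 73.5), a Col-0 48 h difference of at least 1 for INA minus mock with every INA array above every mock array, and a Col-0 48 h difference under 0.3 for DCA minus mock. Of the 13685 probe sets at or above the minimum, 386 met the conditions on INA, and 376 of these had a DCA change of 0.3 or more, which left 10. The supplied platform annotation gives 1 gene for 5 of the 10 (AT1G58420, AT1G67330, AT5G61540, AT3G60450 and AT5G20950) and lists no gene for the other 5, which are called by their probe set IDs: 248551_at, 256793_at, 264960_at, 256589_at and 267496_at.

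The shoots of plants grown on soil for 2 weeks were profiled on 24 arrays. These form 8 groups, each with 3 biological replicates that the labels call independent. Wild-type Col-0 plants received 100 µM INA (2,6-dichloroisonicotinic acid), 100 µM DCA (3,5-dichloroanthranilic acid) or dilute DMSO in water as mock, and were harvested after 48 h or after 6 d. Plants of the mutant npr1-3 received 100 µM DCA or mock and were harvested after 48 h. No npr1-3 group received INA, so the response of these genes to INA without NPR1 was not measured.

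INA is a synthetic activator of systemic acquired resistance and acts like salicylic acid (SA), the hormone that accumulates in infected leaves. SA and its analogues act largely through NPR1, a coactivator that moves into the nucleus and joins TGA transcription factors at defence gene promoters. DCA is another synthetic elicitor of this kind. INA carries its chlorines on a pyridine ring and DCA on a benzene ring that also bears an amino group.

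The deposited signals had been scaled to one trimmed mean, 500.1 on all 24 arrays, and precision is set by how few arrays there are. In the median probe set a 95% interval extended 0.59 on either side of the log2 change, and among the 10 it extended 0.45 to 1.03. Among tissue markers with a named probe set, the Rubisco activase gene RCA of photosynthetic leaf cells had signals of 17433 to 37164, while the root hair expansin gene EXP7 stayed at 8.9 to 79.8 and the shoot meristem gene CLV3 at 2.7 to 10.6. NPR1 itself is not among the genes named by the annotation, so the mutant was not checked by its own transcript. A score of the contrast between replicates 1 and 2 was taken over 500 probe sets outside the 10. These were picked for that contrast in the 48 h groups other than Col-0 DCA, so its size in those groups, and the gap to the Col-0 DCA arrays, are in part built in. On it, replicates 1, 2 and 3 lay at 1.61, -0.64 and 0.23 in Col-0 INA, at -0.59, -0.58 and -0.38 in Col-0 DCA and at 1.35, -0.72 and 0.21 in Col-0 mock.

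At 48 h in Col-0, the INA means were 2.01 to 3.58 times the mock means, log2 differences of 1.0 to 1.84 with a median of 1.08, while the DCA differences lay between -0.03 and 0.27 with a median of 0.14. These are the values that chose the probe sets and are given as a description. In whole aerial tissue, more RNA per cell and more cells of a type cannot be told apart.

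AT5G20950 encodes a glycoside hydrolase that acts as a beta-glucosidase on cell-wall xyloglucan, and it was the brightest of the 10. Its signals were 5001, 4500 and 6064 with INA, 2912, 2737 and 2743 with DCA, and 2636, 2106 and 3046 with mock. The 3 INA arrays stood apart from the other 6, and the DCA arrays lay inside the mock range. AT1G67330 belongs to a plant family whose characterised members methylate glucuronic acid on cell-wall polysaccharides. Its signals were 639, 448 and 588 with INA, 205, 212 and 196 with DCA, and 308, 130 and 180 with mock. INA was 2.86 times mock on the log2 means, and the DCA arrays again fell between the mock arrays.

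AT3G60450 encodes a protein of the phosphoglycerate mutase-like family. It had signals of 1854, 1410 and 1858 with INA, 798, 834 and 987 with DCA, and 1227, 571 and 847 with mock. AT5G61540, an asparaginase-like hydrolase gene, was the dimmest member, at 169, 146 and 178 with INA, 132, 53.8 and 103 with DCA, and 81.4, 70.6 and 92.4 with mock. In AT5G61540, DCA replicates 1 and 3 lay above all mock arrays and DCA replicate 2 below them, so its low DCA change is a mean of unlike arrays. AT1G58420, for which no role is given here, had signals of 662, 415 and 393 with INA, 186, 180 and 193 with DCA, and 235, 155 and 119 with mock.

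Of the unnamed probe sets, 248551_at had the widest INA difference. Its signals were 1557, 767 and 1335 with INA, 344, 371 and 452 with DCA, and 583, 194 and 309 with mock, and the INA arrays lay above both other groups. The signals of 267496_at were 1772, 1423 and 1595 with INA, 925, 678 and 869 with DCA, and 964, 666 and 744 with mock. Those of 264960_at were 335, 575 and 569 with INA, 269, 190 and 208 with DCA, and 310, 149 and 247 with mock. In 264960_at the separation between INA and mock rests on INA replicate 1 at 335 against mock replicate 1 at 310. For 256793_at and 256589_at the log2 differences were 1.14 and 1.07 for INA minus mock and 0.26 and 0.27 for DCA minus mock.

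**Figure D1:**
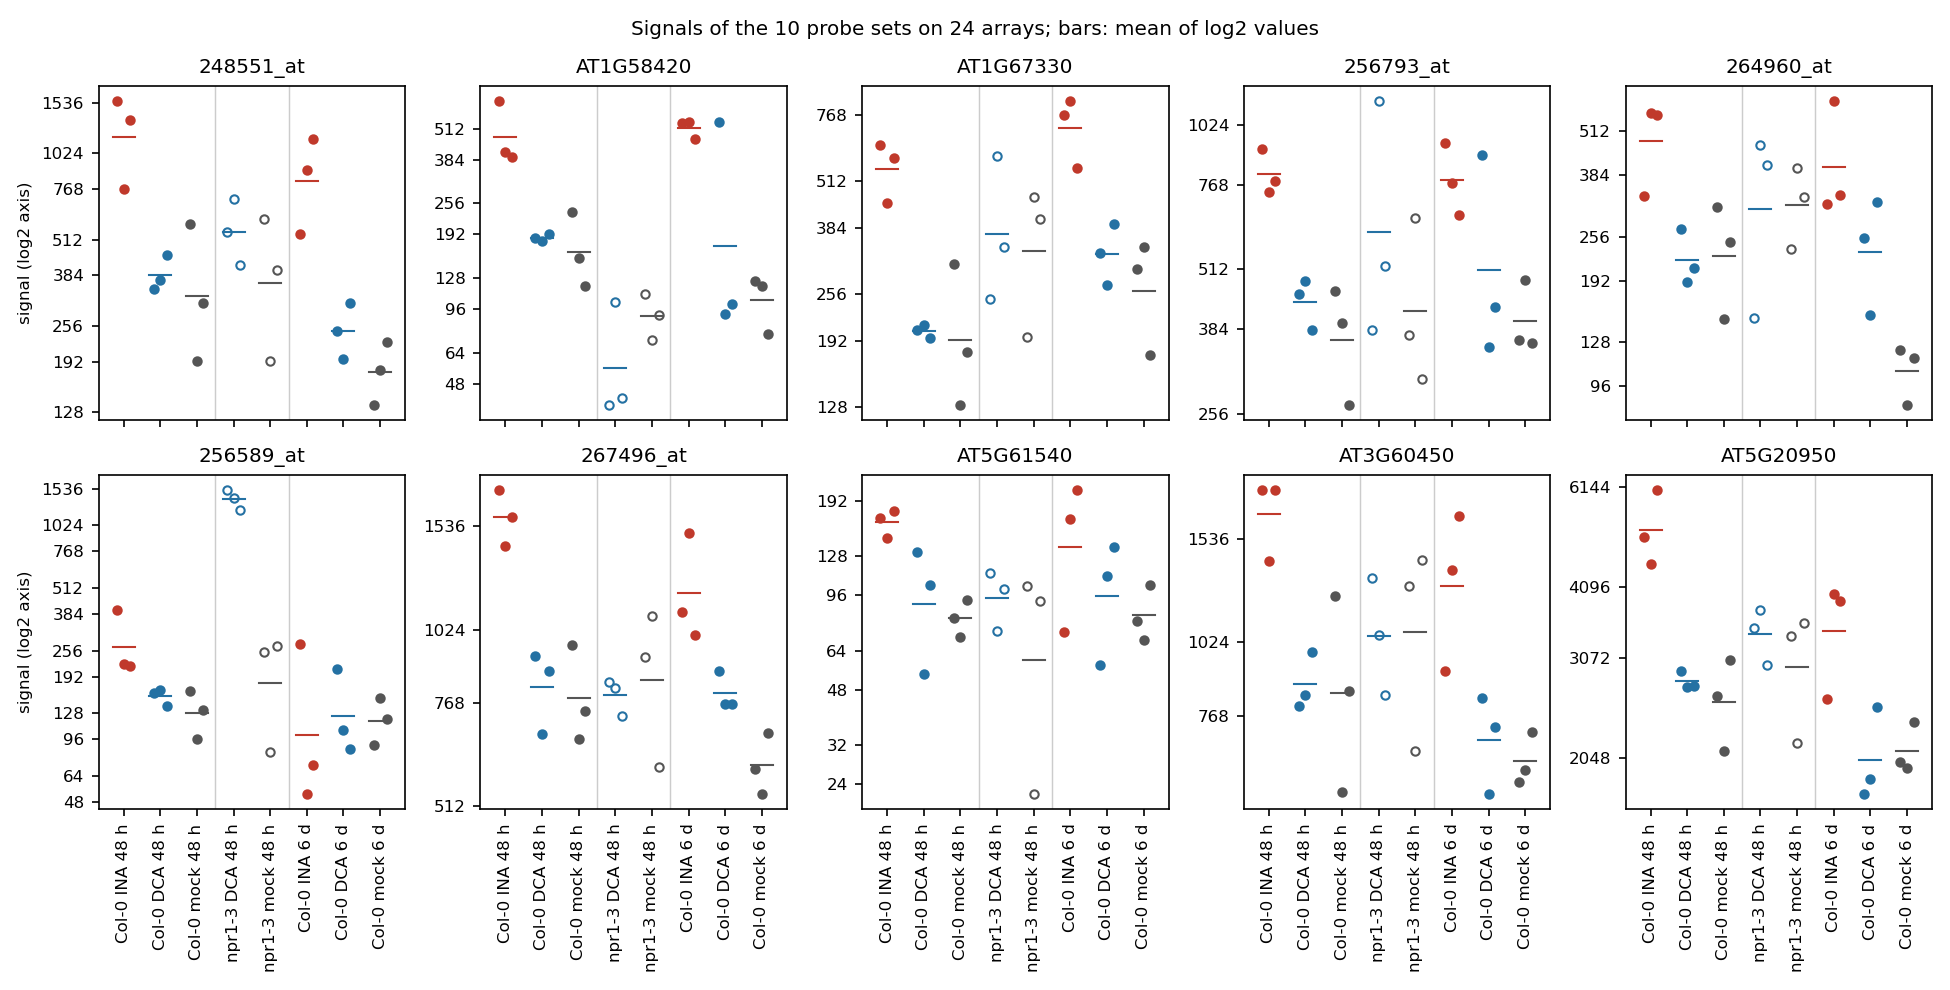
Signal (log2 axis) of each of the 10 probe sets on each of the 24 arrays, by group, with red for INA, blue for DCA and grey for mock; filled circles are Col-0, open circles npr1-3, and bars are means of log2 values over 3 arrays. The INA arrays at 48 h lie above both other Col-0 groups in every panel, and 256589_at is highest in npr1-3 with DCA, at 1205 to 1515.

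At 48 h every INA array lay above every DCA array in 10 of the 10, a pattern found in 12% of all tested probe sets and in 170 of the 376 other INA-raised ones. The rule compared both compounds with the same mock arrays and set the 10 apart from the 376 by their DCA change, so this count and the differences between both sets at 48 h follow in part from the choice. The log2 difference of INA minus DCA at 48 h ran from 0.79 for 256589_at to 1.60 for 248551_at, with a median of 0.96, against a median of 0.39 in the other 376. In those 376 the median change was 1.52 with INA and 1.25 with DCA. Members close to the bounds were not set off from their neighbours. Just inside the INA bound were AT5G61540 (1.02), AT3G60450 (1.01) and AT5G20950 (1.0), and just outside it AT1G53710, AT1G62422 and AT5G19930 (each 0.99). Just inside the DCA bound were 248551_at (0.24), 256793_at (0.26) and 256589_at (0.27), and just outside it 260601_at (0.32), AT5G42830 (0.36) and AT5G38900 (0.38).

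**Figure D2:**
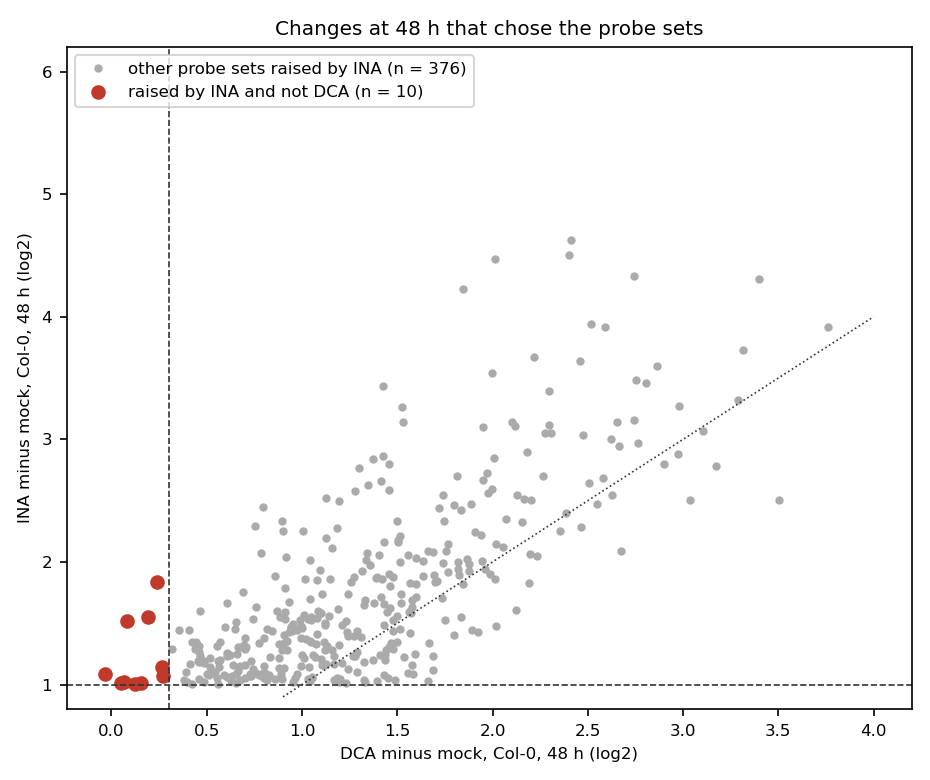
Log2 change at 48 h in Col-0 with DCA (horizontal) and with INA (vertical), each minus mock, for the 386 probe sets that met the conditions on INA; red points are the 10 with a DCA change under 0.3, dashed lines are the bounds and the dotted line marks equal changes. The 10 lie at the left end of a continuous cloud, with DCA changes of -0.03 to 0.27.

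The low DCA change depended on which mock array it was set against. The mean of the DCA arrays was below mock replicate 1 in 8 of the 10, with a median difference of -0.29, and all 3 DCA arrays were below it in 6. Against mock replicate 2 all 3 DCA arrays were above in 8 of the 10, with a median difference of 0.49, and against mock replicate 3 in 5, with a median of 0.16. Over all tested probe sets these medians were 0.01, 0.00 and -0.01. Mock replicate 1 also had the highest replicate score of the mock arrays, 1.35 (part of the choice of the score's probe sets), while the 3 DCA arrays had scores of -0.59, -0.58 and -0.38 and mock replicate 2 had -0.72; the part of this difference in the DCA values was not tested.

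Without mock replicate 1, DCA minus mock was positive in 10 of the 10, from 0.14 to 0.66, and reached 0.3 in 6. The 4 that then still met the rule were 264960_at, 267496_at, AT5G61540 and AT5G20950, among 32 probe sets in all. For 248551_at the DCA difference became 0.66, for AT1G58420 0.46 and for AT1G67330 0.42. INA minus mock without that array ran from 1.02 to 2.26. Without mock replicate 2 the rule kept 3 of the 10 among 11 probe sets, and without mock replicate 3 it kept 7 among 12. Between arrays of the same replicate number, the median of INA minus mock was 1.02, 1.25 and 1.17 for replicates 1, 2 and 3, and the lowest value was 0.11, for 264960_at in replicate 1; the rule itself made each of these differences positive.

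**Figure D3:**
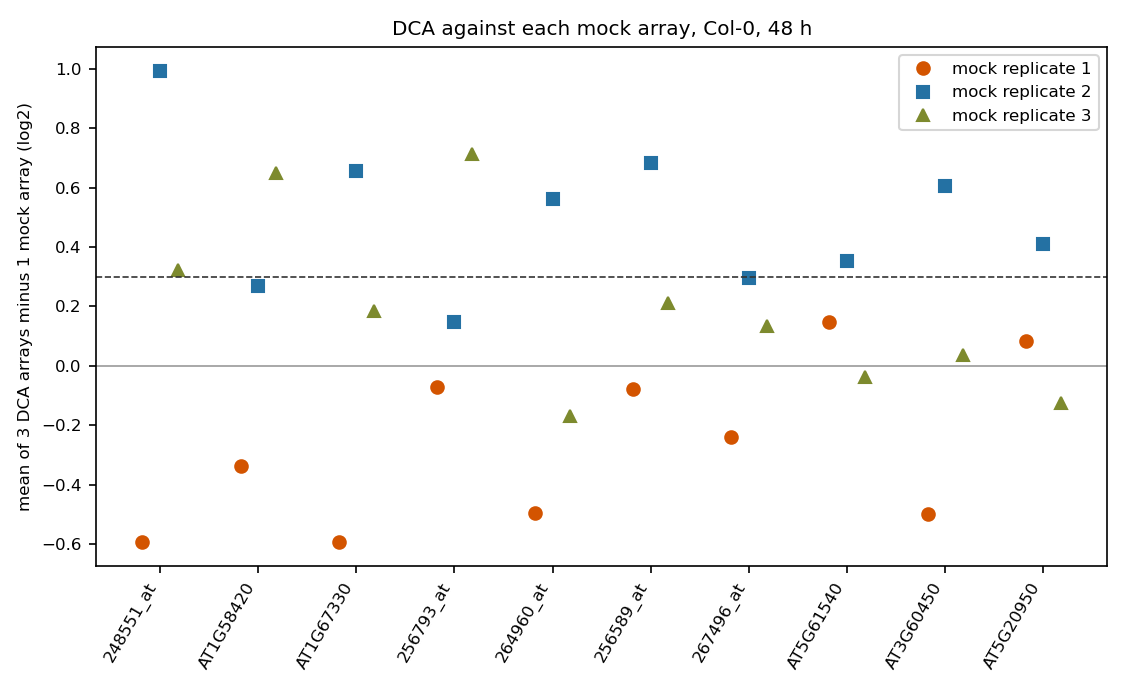
For each of the 10 probe sets, the mean log2 signal of the 3 Col-0 DCA arrays at 48 h minus that of 1 mock array (circles, mock replicate 1; squares, mock replicate 2; triangles, mock replicate 3); the dashed line is the bound of 0.3 used by the rule. Against mock replicate 1 the difference is below 0 in 8 of 10, and against mock replicate 2 it is above 0 in all.

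The arrays at 6 d entered the rule through the filter on the mean alone, and they ask whether the rise after INA lasted. At 6 d INA still raised 5 of the 10: 248551_at, AT1G58420, 264960_at, AT1G67330 and 267496_at. By limma 50% of the members were called higher, against 1.56% of all tested probe sets and 39.1% of the other 376 INA-raised ones. The share depended on how the members were found: it was 9.38% (3 of 32) when the rule was applied without Col-0 mock 48 h replicate 1 and 16% (13 of 81) without Col-0 INA 48 h replicate 2, and 40% to 63.6% without any one of the other 7 arrays. The median change of the 10 was 0.98, against 1.12 in the 376 and 0.00 over all tested probe sets. INA arrays lay above every mock array in 8 of the 10, a pattern that 12.8% of all tested probe sets showed.

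AT1G58420 had signals of 539, 547 and 466 with INA at 6 d and 124, 119 and 75.9 with mock. INA arrays were thus far from the mock arrays: the log2 difference was 2.31 with an SE of 0.49 (adjusted p 0.0127). The signals of 248551_at were 534, 894 and 1145 with INA and 135, 179 and 226 with mock, a log2 change of 2.21 ± 0.41 (0.00503). This was the member called in each of 6 fits that left out 1 array (highest adjusted p 0.0403). AT1G67330, of the cell-wall methyltransferase family, had signals of 766, 834 and 554 with INA and 298, 340 and 176 with mock, a log2 change of 1.44 ± 0.36 (0.04). Its groups did not overlap, but the call was lost in each of the 6 fits that left out an array (0.0546 to 0.189).

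The signals of 264960_at were 317, 623 and 336 with INA at 6 d and 122, 84.8 and 115 with mock, a log2 change of 1.93 ± 0.4 (adjusted p 0.0104). Those of 267496_at were 1096, 1498 and 1001 with INA and 593, 538 and 684 with mock, a change of 0.97 ± 0.22 (0.0185). Without INA replicate 2 only 248551_at kept its call, as AT1G58420 (0.0518), 264960_at (0.0688) and 267496_at (0.102) missed the threshold. The count was 2 to 3 without any one mock array: 267496_at was not called without mock replicate 1 (0.0838) or 2 (0.116), 264960_at not without mock replicate 2 (0.0698), and AT1G58420 not without mock replicate 3 (0.0685).

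The other named members were not called at 6 d of INA. The beta-glucosidase gene AT5G20950 had signals of 2607, 3975 and 3860 with INA and 2013, 1966 and 2366 with mock, a log2 change of 0.70 ± 0.21 (adjusted p 0.107), which passed without INA replicate 1 (0.89, 0.0395). AT3G60450 had signals of 915, 1357 and 1679 with INA and 594, 623 and 722 with mock, a change of 0.99 ± 0.3 (0.0976). In both genes every INA array lay above every mock array. AT5G61540 changed by 0.72 ± 0.49 (0.508), with 1 INA array, at 73.4, inside the mock range of 69.1 to 104.

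Among the unnamed ones, 256793_at changed by 0.97 ± 0.37 at 6 d of INA (adjusted p 0.206). The probe set 256589_at was the exception in direction: its signals were 274, 52.5 and 71.8 with INA and 90, 152 and 120 with mock, a change of -0.22 ± 0.5 (0.873). The replicate scores at 6 d were 0.24, -0.38 and -0.37 for INA and -0.71, -0.73 and -0.70 for mock. With this score as a covariate the count stayed at 5 and the median change was 0.99.

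**Figure D4:**
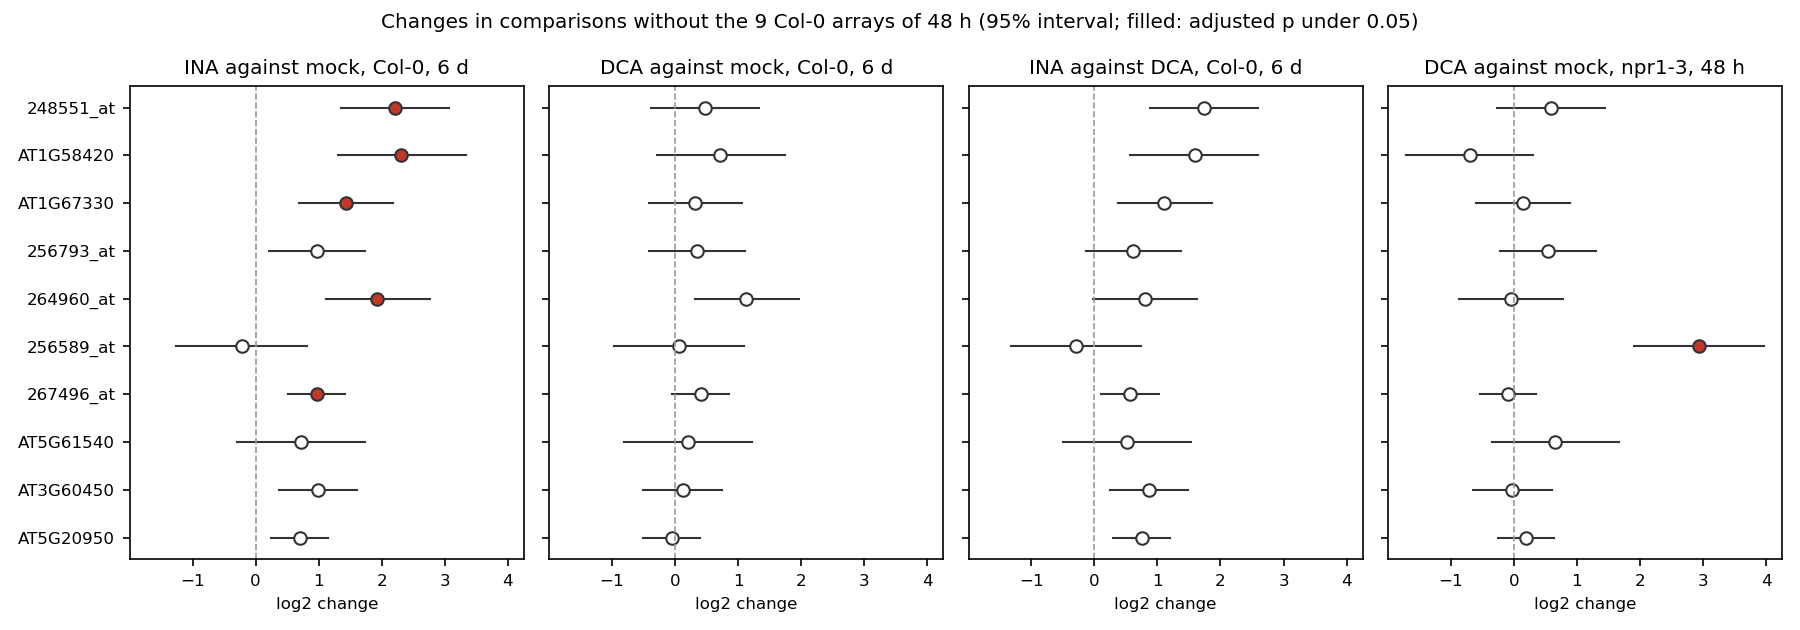
Log2 changes of the 10 probe sets (points) with 95% intervals (lines) from limma in the 4 comparisons that set none of the 9 Col-0 arrays of 48 h against another group; filled points have an adjusted p under 0.05. INA against mock at 6 d has 5 filled points, DCA against mock at 6 d and INA against DCA at 6 d have 0 each, and DCA against mock in npr1-3 has 1, 256589_at at 2.94.

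DCA at 6 d changed none of the 10 beyond the threshold: 0 were called by limma, as in all tested probe sets (0%), and 1 of the 10 had an unadjusted p under 0.05, among 445 in all. Their median change was 0.34, against 0.29 in the other 376 INA-raised probe sets and -0.04 over all tested ones. The 1 was 264960_at, at 253, 153 and 323 with DCA and 122, 84.8 and 115 with mock, a log2 change of 1.13 ± 0.4 (95% interval 0.31 to 1.96, adjusted p 0.93). It and 267496_at (0.41 ± 0.22, adjusted p 0.93) had every DCA array above every mock array, which 7.30% of all tested probe sets showed. AT1G58420 changed by 0.72 ± 0.49 (0.93), with 1 DCA array apart: its signals were 545, 92.1 and 101 with DCA and 124, 119 and 75.9 with mock. Without DCA replicate 1 its change was -0.11. The interval of AT1G58420 reached from -0.29 to 1.74, so a sizeable change with DCA cannot be told from none. AT5G20950 changed by -0.05, with an interval of -0.50 to 0.39.

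INA and DCA, at one dose and one time, were compared directly at 6 d, the only pair of compounds tested here. INA was higher than DCA in the mean in 9 of the 10, as in 372 of the other 376 and 7396 of all 13685 tested. The median log2 difference of the 10 was 0.78, but 0 of the 10 were called higher by limma, against 0.197% of all tested probe sets (27). Of the 10, 6 had an unadjusted p under 0.05 by limma, as did 242 of the other 376 and 802 of all 13685 tested. The other 376 INA-raised probe sets, whose DCA change at 48 h was 0.3 or more, had a median difference of 0.84, and 26 of them were called. Every INA array lay above every DCA array in 5 of the 10, against 6.77% of all tested probe sets.

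The replicate numbers were taken to pair the arrays of this comparison, since same-numbered arrays deviated together in these data (correlations of 0.75, 0.57 and 0.46). The fit with replicate number as a block used the 6 arrays of this comparison alone, and the fit without it, given below, all 24. Without the block, a fit to these 6 arrays called 0 probe sets (adjusted p 0.307 for 248551_at). With the block, INA was called higher in 5 of the 10, against 2.14% of all tested probe sets and 51.3% of the other 376. They were 248551_at (log2 difference 1.74, adjusted p 0.000824 with the block and 0.0978 without), AT1G67330 (1.11, 0.0143 and 0.348), AT5G20950 (0.75, 0.0217 and 0.232), AT1G58420 (1.59, 0.0425 and 0.296) and AT3G60450 (0.87, 0.0477 and 0.446). The signals of 248551_at at 6 d were 534, 894 and 1145 with INA and 246, 196 and 306 with DCA, apart in every replicate. Those of AT1G67330 were 766, 834 and 554 with INA and 328, 270 and 393 with DCA. The signals of AT1G58420 were 539, 547 and 466 with INA and 545, 92.1 and 101 with DCA, and the groups overlapped through DCA replicate 1. Without that array the difference of AT1G58420 was 2.42 (adjusted p 0.00332).

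The remaining 5 had no call with or without the block. Their INA minus DCA differences at 6 d were 0.80 (95% interval -0.02 to 1.63) for 264960_at, 0.62 (-0.14 to 1.38) for 256793_at, 0.56 (0.11 to 1.02) for 267496_at, 0.52 (-0.50 to 1.53) for AT5G61540 and -0.29 (-1.32 to 0.74) for 256589_at. These intervals leave room for differences up to their bounds and do not show that both compounds act alike on these genes. Without INA replicate 1, 248551_at (2.04, adjusted p 0.0319) and AT5G20950 (0.95, 0.0467) were called without the block as well.

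In npr1-3 plants the question is whether DCA moves these transcripts at 48 h when NPR1 is impaired. DCA raised 1 of the 10 in the mutant, 256589_at, against 0.314% of all tested probe sets called higher by limma, and 9.04% of the other 376. With replicate number as a block, fitted to the 6 arrays of this comparison alone, the same member was the only one called (adjusted p 0.0023). The share of all tested probe sets called higher was 0.855% there. The median change of the 10 was 0.17, with 6 positive, against 0.77 in the other 376, with 357 positive. Over all tested probe sets it was 0.09, with 8318 of 13685 positive. The difference between both sets was not tested.

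The signals of 256589_at in npr1-3 were 1515, 1387 and 1205 with DCA and 253, 83.6 and 268 with mock. The groups were far apart, by 2.94 ± 0.5 (SE) on the log2 scale (adjusted p 0.0122), while in Col-0 at 48 h the DCA arrays read 160, 165 and 139. Only this member had every DCA array above every mock array in the mutant, which 6.93% of all tested probe sets showed. The call was lost without DCA replicate 2 (0.0607), without DCA replicate 3 (0.0512) and without mock replicate 2 (2.39, 0.0811). A fit to these 6 arrays alone without the block called 0 probe sets, and 256589_at had an adjusted p of 0.685 there. The mutant arrays with DCA were also above the INA arrays of Col-0, at 402, 219 and 217, a comparison given without a test since the Col-0 arrays chose the member.

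AT1G58420 had low signals in npr1-3, 39.3, 102 and 42.0 with DCA and 111, 71.9 and 90.9 with mock, a change of -0.70 ± 0.49 (adjusted p 0.777). All 6 mutant arrays lay below the 3 mock arrays of Col-0 at 119 to 235, by a log2 difference of -0.86 between the mock means, given with no test because those Col-0 arrays chose the member. AT1G67330 stood higher in npr1-3, with signals of 248, 596 and 341 with DCA and 197, 465 and 406 with mock, a change of 0.15 ± 0.36 (0.96). Its mutant mock mean was 0.79 above that of Col-0 mock on the log2 scale, and the arrays overlapped. The other 7 members changed by -0.09 to 0.66 with DCA in the mutant, and their adjusted p-values ran from 0.769 to 0.993.

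The SA response and acquired resistance list, chosen with earlier results of these data known, has 50 genes, of which 9 have a named probe set and 6 were tested; none is among the 10. At 48 h the 6 genes had Col-0 changes of 1.14 to 2.47 with INA and of 0.48 to 2.55 with DCA. At 6 d, 0 of the 6 were called with INA (median 0.85) and 0 with DCA (median 0.07). In npr1-3 with DCA, the calmodulin-like gene CaBP22 rose (1.63, adjusted p 0.0144) and the other 5 were not called.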

How the data were processed

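The authors deposited a linear intensity per probe set, and the submitters' processing notes name GCOS as the software. Without the top and bottom 2% of values, every array had the same mean. All 24 columns were mapped to samples and 0 were left unmapped; 64 control probe sets were left out. A floor of 1 was applied before taking log2. Probe sets with a mean log2 signal of at least 6.2 over 24 arrays, 13685 in number, entered limma 3.58.1 in R 4.3.3 (means model of 8 groups, eBayes with intensity trend, 16 residual degrees of freedom), and 4 comparisons were tested, two-sided, with Benjamini-Hochberg adjustment over all of them within a comparison and calls at an adjusted p under 0.05. The members and gene lists were chosen with earlier results of these data known. Comparisons that use any of the 9 Col-0 arrays of 48 h carry no test, because those arrays chose the members. The filter and the spread in the fit of all 8 groups still draw on them.

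Gene names come from the platform annotation: 7360 tested probe sets have 1 gene there, 272 several and 6053 none, with loci matched to a RefSeq gene table. The naming rule takes members with 1 gene, up to 12 by INA change at 48 h, hence 5, the probe sets nearest each bound, called members and called genes of the SA list; the members without a gene that it does not reach were added by ID after their values were seen. Same-numbered arrays deviated together in INA against DCA at 6 d (correlations of 0.75, 0.57 and 0.46) and in npr1-3 DCA against mock (0.67, 0.65 and 0.12). These numbers were taken to pair arrays because all 3 correlations passed a low bound, which 0.12 only just did. The correlations were 0.02, 0.14 and 0.34 in INA against mock at 6 d. In DCA against mock at 6 d they were -0.02, 0.08 and 0.09. No pairing was taken in either of these. The replicate score is the mean signed deviation over 500 non-member probe sets. These differ between replicates 1 and 2 in the same direction in all 4 of the 48 h groups other than Col-0 DCA, and were ranked by the smallest of their 4 differences. Alternatives were quantile normalization, a floor of 16, no filter, no trend, fits to the 6 arrays of a comparison, the same with a replicate block, the score as covariate, and leaving out each array. Matplotlib 3.10.9 drew the figures.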

Additional observations from a re-analysis of the deposited data

How the results depend on the processing

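The choice of the 10 depended on single arrays and bounds. The rule found 8 to 81 probe sets when 1 of its 9 arrays was left out, 81 of them without Col-0 INA replicate 2 and 32 without Col-0 mock replicate 1. Of the 10 it kept 3 without mock replicate 2, 4 without mock replicate 1 and 6 to 9 without any one of the other 7. It found 72 without the filter on the mean, 36 when arrays could overlap and 1 with a DCA bound of 0. After quantile normalization it found 7, of which 5 were among the 10. The calls over the probe sets found without an array were an alternative chosen after seeing the data. INA at 6 d raised 3 of 32 without mock replicate 1, 13 of 81 without INA replicate 2, and 4 to 7 of the 8 to 14 found without any one of the others.

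For INA against mock at 6 d, 251 probe sets were called, 139 with the replicate block and 122 to 231 with 1 array left out. Of the 10, 5 were called, 3 with the block, 3 with the 6 arrays alone and 1 to 5 with 1 array left out; the block took the calls of 264960_at (adjusted p 0.0595) and 267496_at (0.133). AT1G67330 also missed the threshold after quantile normalization (0.0543), without the filter (0.0581) and with the 6 arrays alone (0.0584). For DCA against mock at 6 d, 0 probe sets were called, 2 without the filter and 0 to 1 with 1 array left out. For INA against DCA at 6 d, 28 were called, 0 with the 6 arrays alone, 439 with the replicate block, 80 with the score as covariate and 4 to 112 with 1 array left out. Of the 10, 0 were called, 5 with the block, 1 with the score and 0 to 2 with 1 array left out. For DCA against mock in npr1-3, 44 were called, 25 after quantile normalization, 26 without the filter, 0 with the 6 arrays alone, 195 with the block, 80 with the score and 9 to 76 with 1 array left out; of the 10, 1 was called, 0 with the 6 arrays alone and 0 to 1 with 1 array left out.

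The median change of the 10 kept its sign in the settings tried. Single changes that were not called turned sign with 1 array left out. For 256589_at the range was -0.94 to 0.25 for INA against mock at 6 d and -1.01 to 0.18 for INA against DCA. For DCA against mock at 6 d the ranges were -0.11 to 1.17 for AT1G58420, -0.21 to 0.05 for AT5G20950, -0.05 to 0.57 for AT5G61540, -0.31 to 0.33 for 256589_at (-0.12 with the score) and -0.04 to 0.62 for 256793_at. In npr1-3 they were -0.02 to 0.32 for AT5G20950, -0.04 to 1.05 for AT5G61540, -0.36 to 0.18 for AT3G60450, -0.34 to 0.47 for 264960_at, -0.23 to 0.43 for AT1G67330 and -0.33 to 0.09 for 267496_at. The causes were not tested.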

Other observations

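Of the SA response list, WRKY53, UGT76B1, WRKY6 and SARD4, all outside the 10, read higher with INA than with DCA on every array at 48 h in Col-0. This pattern was found in 12% of all tested probe sets and in 45.2% of the other 376 INA-raised ones. The other listed genes with a probe set did not show it. Their log2 differences of INA minus DCA were 0.10 for SAG101, -0.07 for GRX480 and -0.36 for CaBP22. For the dim UGT74F1 and BSMT1, not tested, they were -0.71 and 0.59. WRKY6 and SARD4 had log2 changes of 1.05 and 1.34 with DCA against mock. The genes WRKY53 and UGT76B1 are described here and were chosen after their values were seen. WRKY53, a transcription factor gene of leaf senescence and defence, had signals of 1771, 266 and 664 with INA, 243, 235 and 259 with DCA, and 552, 70.5 and 139 with mock at 48 h. The INA arrays lay above the DCA arrays but overlapped the mock arrays through mock replicate 1, so it failed the rule, and its changes were 1.95 with INA and 0.48 with DCA. The separation from DCA rests on INA replicate 2 at 266 against DCA replicate 3 at 259. Its INA and mock signals ran in the order of the replicate scores, 1.61, -0.64 and 0.23 with INA and 1.35, -0.72 and 0.21 with mock. The DCA scores were -0.59, -0.58 and -0.38. The part of the replicate state in its INA minus DCA difference was not tested. At 6 d its signals were 459, 396 and 787 with INA, 164, 149 and 222 with DCA, and 149, 174 and 217 with mock, and it was not called in INA against mock (1.56, adjusted p 0.232) or INA against DCA (1.57, 0.63).

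UGT76B1, which encodes a glucosyltransferase of isoleucic acid and SA, had dim signals of 64.1, 62.8 and 79.4 with INA, 24.8, 23.0 and 17.7 with DCA, and 43.1, 3.49 and 24.1 with mock at 48 h. The INA arrays read higher than the other 6, but its mean log2 signal of 4.63 was under the minimum, these signals lie mostly in the range of the root hair gene EXP7 in the same shoots (8.9 to 79.8), and it was not tested; no fold is given. At 6 d the order was not kept, at 17.2, 12.1 and 37.2 with INA, 23.6, 44.1 and 24.6 with DCA, and 20.3, 23.3 and 18.2 with mock.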
